A study of Homo sapiens with 32 samples.

Results

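The RAS guanine nucleotide exchange factors are the proteins that open RAS, releasing GDP so that GTP can bind and RAS can signal to the RAF, MEK and ERK kinases. The SOS proteins are brought to activated receptors by the adaptor GRB2, the RASGRF proteins respond to calcium through calmodulin, and the RASGRP proteins are recruited to membranes by diacylglycerol. RASGRF proteins are known mainly from neurons, RASGRP proteins mainly from blood cells, and SOS proteins from nearly every tissue. The family was taken by gene symbol as 8 genes (RASGRF1, RASGRF2, RASGRP1, RASGRP2, RASGRP3, RASGRP4, SOS1 and SOS2), which were 8 of the 28278 symbols in the count tables. The family was chosen by the STAG1 KO value of RASGRF1, the highest rise in that comparison, so the values of that comparison describe the choice and carry no test.

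RNA was sequenced in 32 samples of cell lines of Ewing sarcoma, a tumour of bone and soft tissue that is usually driven by the fusion EWSR1::FLI1. In A673 cells, 22 libraries came from 3 experiments on edited clones. The controls in each experiment were the parental line and a WT clone that carries a doxycycline-inducible Cas9 at AAVS1 without an edit of the target, and every KO clone was derived from that WT clone, so KO libraries share Cas9 with the WT clone but not with the parental line. Experiment 1 held 2 WT clone libraries (a and b), 1 parental library and 2 STAG2 KO libraries (numbered 5 and 24 in the count table). Experiment 2 held 2 WT clone libraries, 1 parental library and 3 libraries each of STAG2 KO, EZH2 KO and SUZ12 KO clones. Experiment 3 held 1 WT clone library, 1 parental library and 3 STAG1 KO libraries (numbered 1, 5 and 7). STAG1 and STAG2 are the alternative STAG subunits of cohesin, the ring that folds chromatin into loops, and EZH2 and SUZ12 are core subunits of PRC2, which places the repressive mark H3K27me3. In experiment 4, A673 cells were mock transfected (siC, 3 libraries) or given siRNA against STAG2 (siSTAG2, 3 libraries). The isogenic pairs, with 1 library per arm, were SK-N-MC cells with STAG2 (WT) or without it (STAG2 KO), and A4573 cells, whose parental line lacks STAG2, against A4573 cells in which STAG2 was restored (STAG2 KI).

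The A673 clone libraries held 15734628 to 20663679 counts, the isogenic libraries 29322507 to 32261248, and the knockdown libraries 6852340 to 8184632 reads recovered from the normalized values. Levels are given as normalized CPM, library-scaled counts (TMM), and for the knockdown as normalized reads. The targeted transcripts were lower in EZH2 KO (28.4 to 55.3 CPM against 172 to 194), in SUZ12 KO (11.3 to 20.6 against 60.3 to 67.1) and in STAG2 KO libraries (42.4 to 184 against 256 to 361). In SK-N-MC, STAG2 was 179 CPM in the STAG2 KO library against 281 in WT. In A4573 it was 32.3 CPM in the parental line against 85.2 in STAG2 KI. The STAG2 level of the knockdown libraries is not given here. STAG1 was 15.1 and 33.2 CPM in libraries 5 and 7 labelled STAG1 KO, but 61.5 CPM in the library labelled STAG1 KO 1, inside the control range of 57.8 to 69.6. STAG1 shares 1661 exon bases with PCCB on the opposite strand, where reads without strand cannot be told apart. A transcript level also does not show whether the protein is present, so the edit in that library is not judged from it. Of 8 Ewing sarcoma markers, 7 were at 5 CPM or more in all 26 count libraries, and CD99 was listed at 0 in each. Of 6 blood cell markers, 4 stayed under 1 CPM in the A673 clones, while ITGAM reached 19.8 and CD53 2.73. In bulk RNA, fewer cells that carry a transcript and less of it per cell cannot be told apart.

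The upstream sequences of the members differ, and 3 are shown because RASGRF2 was the member with the lowest fold changes in PRC2 KO cells, RASGRP2 was tested there beside it without a call, and RASGRP4 was found in A4573 cells alone among the 3 lines at more than 1 CPM. RefSeq promoter entries (GRCh38.p14) were matched for 7 of the 8 members, and RASGRF1 was not among them. Each sequence below is the 250 bases before an annotated start, 5′ to 3′ on the strand of the gene. RASGRF2 lies at chr5:80960113-80960362 (+ strand) and RASGRP2 at chr11:64745349-64745598 (− strand), both with each CG in capitals. RASGRP4 lies at chr19:38426220-38426469 (− strand), with TTCCTTCC in capitals, the reverse complement of GGAAGGAA, a pair of the GGAA cores of which EWSR1::FLI1 binds longer runs.
RASGRF2: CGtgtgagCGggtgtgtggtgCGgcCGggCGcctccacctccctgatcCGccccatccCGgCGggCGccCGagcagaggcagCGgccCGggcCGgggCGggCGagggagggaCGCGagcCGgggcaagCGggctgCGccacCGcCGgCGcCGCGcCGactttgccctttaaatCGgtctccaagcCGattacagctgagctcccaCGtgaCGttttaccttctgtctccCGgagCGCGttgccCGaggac
RASGRP2: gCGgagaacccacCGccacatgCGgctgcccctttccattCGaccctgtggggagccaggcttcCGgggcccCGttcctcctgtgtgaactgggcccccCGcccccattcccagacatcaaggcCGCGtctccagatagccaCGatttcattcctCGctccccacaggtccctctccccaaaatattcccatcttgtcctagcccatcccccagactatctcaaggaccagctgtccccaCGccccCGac
RASGRP4: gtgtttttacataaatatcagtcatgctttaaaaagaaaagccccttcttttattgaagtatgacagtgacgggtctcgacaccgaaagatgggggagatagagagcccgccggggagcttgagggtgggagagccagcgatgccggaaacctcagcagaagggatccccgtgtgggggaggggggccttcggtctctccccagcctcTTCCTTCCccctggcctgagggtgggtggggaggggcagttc

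The RASGRF2 window held 34 CG sites, a number reached by 6.84% of the 35116 promoter windows in the table, and the RASGRP2 window held 13, a number reached by 46.6%. SOS2 also held 34, so a CG-rich window was not particular to RASGRF2. GGAAGGAA was searched on both strands, overlapping matches counted, and was found at 1 place in RASGRP4 and in none of the other 10 member windows. It occurred in 3.06% of all windows. A match is a run of letters and not a measured binding site.

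Levels between members were compared per kb of exon, taken as all annotated exon bases of the gene, 22984 for SOS1 and 6948 for SOS2. In the 22 A673 clone libraries SOS2 was highest (median 5.50 CPM per kb, range 3.61 to 9.25), followed by SOS1 (3.94, 2.21 to 4.94). Their ranges overlapped. RASGRF1 (0.353, 0.0196 to 2.36), RASGRP2 (0.327, 0.101 to 0.906) and RASGRF2 (0.146, 0.00513 to 0.738) had lower medians with overlapping ranges. Every SOS2 value lay above theirs, while the highest RASGRF1 value, in an EZH2 KO clone, lay above the lowest SOS1 value. RASGRP3 reached 0.0603 CPM per kb at most. RASGRP1 had at most 2 reads and RASGRP4 at most 4 in any A673 clone library. SOS1 and SOS2 together made up 73.6% to 94.9% of the family's transcripts per kb in these libraries.

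RASGRF1 (ENSG00000058335), a calcium-responsive exchange factor that is imprinted in mice, lies at chr15:78959906-79090780 of GRCh38 on the − strand. Part of its exons, 618 bases, is shared with a lncRNA on the opposite strand. In experiment 3 it was 0.195 CPM (4 reads) in the parental line and 0.327 CPM (6 reads) in the WT clone. The libraries labelled STAG1 KO 1, 5 and 7 held 10.1, 9.22 and 10.9 CPM (159, 168 and 212 reads). Every STAG1 KO library lay above both controls, and the library labelled 1, with STAG1 transcript at control level, held as much RASGRF1 as the others.

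The fitted log2 fold change of RASGRF1 in STAG1 KO was 5.25 (standard error 0.331), given as a description. A ranking took genes that rose there with a mean of at least 5 CPM, no overlap between groups and an edgeR adjusted p under 0.05. Those cuts only defined the list and test no member. The mean was over KO and control libraries together, and RASGRF1 reached it only through the STAG1 KO libraries. RASGRF1 was the highest of the 351 genes in it, and the next were PLVAP at 4.99 and MMP1 at 4.62. Without the library labelled STAG1 KO 1 the value was 5.26. The size rests on the controls: leaving out the parental library gave 4.91 and leaving out the WT clone library gave 5.65. The same controls held far more RASGRF1 in the other experiments, at 1.30 to 3.71 CPM (25 to 70 reads) over 6 libraries. Against those 6 libraries, an alternative chosen after seeing the data, the log2 fold change was 2.10, and experiment and genotype cannot be told apart in it.

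In EZH2 KO cells RASGRF1 rose. The rule for the choice of members did not use this comparison, but earlier results of these data were known when it was made. The controls of experiment 2 held 2.05 and 2.31 CPM in the WT clone and 1.67 CPM in the parental line, and EZH2 KO clones 1, 2 and 3 held 9.93, 23.5 and 4.53 CPM (206, 431 and 95 reads). The 3 clones lay above all controls but differed widely among themselves. The rise was 2.75 on the log2 scale (standard error 0.599; edgeR quasi-likelihood adjusted p = 0.00992), and over 18 alternatives it ran from 1.92 to 3.15 with adjusted p from 5.18e-05 to 0.0494. The lowest value was that without EZH2 KO clone 2.

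SUZ12 KO clones held 4.59, 4.17 and 5.62 CPM of RASGRF1, again above all controls and close to each other. The log2 fold change of 1.32 (standard error 0.580) did not pass the test in the fit of the 12 libraries (edgeR adjusted p = 0.131). With only SUZ12 KO and control libraries in the fit it was 1.34 with adjusted p = 0.00865. EZH2 KO exceeded SUZ12 KO by 1.42 (standard error 0.565), a difference that did not pass (edgeR adjusted p = 0.999). The EZH2 KO and SUZ12 KO comparisons share their controls.

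**Figure D1:**
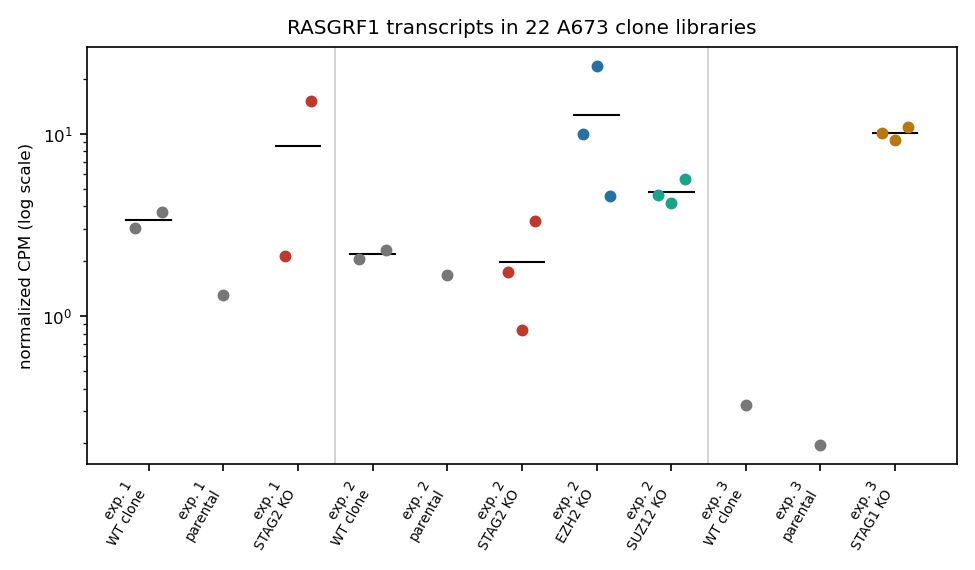
Normalized CPM of RASGRF1 on a log scale in each of 22 A673 clone libraries by group, with grey points for controls, coloured points for KO libraries and a bar at the mean of groups with more than 1 library. Controls of experiment 3 sit at 0.195 and 0.327, below the controls of experiments 1 and 2 at 1.30 to 3.71, and STAG1 KO libraries at 9.22 to 10.9.

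In STAG2 KO cells RASGRF1 stood apart in a single library. It was 15.05 CPM (266 reads) in library 24 of experiment 1 and 2.14 CPM in library 5, against 3.04, 3.71 and 1.30 CPM in the controls. In experiment 2, clones 3, 5 and 2 held 1.74, 0.840 and 3.33 CPM. KO and control libraries overlapped, and the log2 fold change of 0.81 (standard error 0.561) did not pass (edgeR adjusted p = 0.398). Without library 24, which also held the most STAG2 transcript of the 5, it was −0.08 (adjusted p = 0.937).

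In the knockdown RASGRF1 was near the limit of detection. It had 4, 3 and 0 reads in siC libraries 1, 2 and 3, and 15, 9 and 13 in the siSTAG2 libraries, which did not overlap. The reads summed to 37 against 7, a ratio of 5.30 (95% exact interval 2.33 to 14.1, counting error only). With a mean under 10 normalized reads it did not enter the fit. When the minimum was lowered to a mean of 1, its difference was 2.29 on the log2(value + 1) scale (limma adjusted p = 0.00212).

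RASGRF2 (ENSG00000113319, chr5:80960363-81230162, + strand) is the close paralog of RASGRF1 and moved the other way in PRC2 KO cells. Its exons share 127 to 361 bases with each of 3 lncRNAs on the opposite strand. The controls of experiment 2 held 3.82 and 3.85 CPM in the WT clone and 8.14 CPM in the parental line. EZH2 KO clones held 0.482, 0.328 and 0.763 CPM (10, 6 and 16 reads), and SUZ12 KO clones held 0.634, 0.408 and 0.540 CPM (13, 9 and 10 reads). Every KO library was below every control. RASGRF2 fell by 3.23 on the log2 scale in EZH2 KO (standard error 0.651, edgeR adjusted p = 0.00665). It fell by 3.24 in SUZ12 KO (standard error 0.651, adjusted p = 0.00484). The difference between EZH2 KO and SUZ12 KO was 0.01 (standard error 0.650, adjusted p = 0.999). These falls passed the test under each of the 18 alternatives run for each.

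Thus in EZH2 KO 2 of the 5 members tested were called, RASGRF1 higher and RASGRF2 lower, where 15.7% of the 15130 genes tested were called, 12% higher and 3.69% lower. In SUZ12 KO 1 of 5 was called, RASGRF2 lower, where 20.6% of genes were called, 14.7% higher and 5.87% lower. The other 3 members had too few reads to enter these fits. The median log2 fold change of the 5 was 0.19 in EZH2 KO and 0.06 in SUZ12 KO, beside 0.04 and 0.01 over all genes.

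RASGRF2 was also low in most libraries without STAG2. In experiment 1 it was 0.926 CPM in library 5 and 0.0566 CPM (1 read) in library 24, against 1.63 and 0.795 CPM in the WT clone and 4.49 CPM in the parental line. In experiment 2 clones 3, 5 and 2 held 0.370, 2.57 and 1.78 CPM, all below the 3 controls. Over both experiments the groups overlapped. The difference was −1.88 on the log2 scale (standard error 0.681), which did not pass (edgeR adjusted p = 0.0995). Without clone 5 of experiment 2 it was −2.23 (adjusted p = 0.0299), and DESeq2 gave −1.91 (adjusted p = 0.0232). In each of the 3 experiments the parental line held more RASGRF2 than the WT clone, from which the KO clones were derived. With the WT clone as the only control the STAG2 KO difference was −1.24 (adjusted p = 0.322).

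In the knockdown RASGRF2 was 34.3, 55.1 and 30.2 normalized reads in siC and 23.3, 30.6 and 27.0 in siSTAG2, with overlap between the groups. The difference was −0.51 on the log2(value + 1) scale (standard error 0.244, limma adjusted p = 0.150). In STAG1 KO libraries 1, 5 and 7 it was 1.59, 1.81 and 5.21 CPM against 3.70 in the WT clone and 5.96 in the parental line. The library labelled 7 lay between the controls, and the described log2 fold change was −0.74 (standard error 0.564).

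RASGRP2 (ENSG00000068831), an exchange factor of platelets that acts mainly on RAP1, was called in none of the STAG2 KO, EZH2 KO, SUZ12 KO and siSTAG2 comparisons. In experiment 2 it was 1.54 and 1.15 CPM in the WT clone and 0.613 CPM in the parental line. SUZ12 KO clones held 2.68, 1.59 and 2.16 CPM, all above the controls, with a log2 fold change of 1.03 (standard error 0.586, edgeR adjusted p = 0.241). EZH2 KO clones held 1.06, 1.86 and 2.77 CPM and overlapped the controls, with 0.87 (standard error 0.586, adjusted p = 0.342). Its STAG2 KO values were spread: 2.20 and 0.962 CPM in experiment 1, and 1.80, 5.51 and 1.44 CPM in clones 3, 5 and 2 of experiment 2. It amounted to 0.62 on the log2 scale (standard error 0.604; edgeR adjusted p = 0.575). In STAG1 KO it was 1.40, 2.91 and 2.12 CPM, below the 3.92 and 4.88 CPM of the controls, with a described log2 fold change of −1.03. Against the controls of experiments 1 and 2 that value was 0.32.

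SOS1 (ENSG00000115904, chr2:38962206-39124345, − strand), the ubiquitous exchange factor downstream of receptor tyrosine kinases, rose slightly in STAG2 KO cells. It shares 1254 exon bases with SOS1-IT1 on the same strand. In experiment 1 it was 97.7 and 95.9 CPM in libraries 5 and 24, against 92.3, 89.0 and 89.0 CPM in the controls. In experiment 2 clones 3, 5 and 2 held 102.9, 112.6 and 111.7 CPM, against 67.6, 73.5 and 74.7 CPM. Within each experiment every KO library was above every control. The rise was 0.43 on the log2 scale (standard error 0.113; edgeR adjusted p = 0.0307). It was the only member of the 5 tested that was called, where 12.4% of 13574 genes were, and the median of the 5 was 0.43 beside 0.04 over all genes.

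The SOS1 change was carried by experiment 2, where it was 0.65 (adjusted p = 0.0341), against 0.11 (adjusted p = 0.383) in experiment 1. The difference between experiments was 0.56 (standard error 0.143) and did not pass after adjustment over all genes (edgeR adjusted p = 0.0766). The call was lost on leaving out any control library of experiment 2, clone 3 or 2 of that experiment, or WT clone library b of experiment 1, with values of 0.34 to 0.44 and adjusted p of 0.0524 to 0.105.

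In PRC2 KO cells SOS1 lay below the controls without passing the test. EZH2 KO clones held 57.1, 57.6 and 51.2 CPM, with a log2 fold change of −0.29 (standard error 0.108, edgeR adjusted p = 0.0922; DESeq2 0.0213). SUZ12 KO clones held 50.9, 56.4 and 56.5 CPM, with −0.33 (standard error 0.108, edgeR adjusted p = 0.0520; DESeq2 0.0152). No KO library of either kind reached the lowest control. In the knockdown SOS1 was 186.8, 192.9 and 224.0 normalized reads in siC and 159.8, 193.8 and 199.97 in siSTAG2, a difference of −0.13 (standard error 0.111, limma adjusted p = 0.470). In STAG1 KO it was 94.3, 101.4 and 95.6 CPM against 111.1 and 113.4 CPM, with a described value of −0.21 that became 0.26 against the controls of experiments 1 and 2.

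SOS2 (ENSG00000100485, chr14:50117130-50231578, − strand), the paralog of SOS1, passed in no comparison. Its STAG2 KO libraries of experiment 1 held 41.5 and 38.8 CPM against 40.5, 40.0 and 40.3 CPM, nearly the same. In experiment 2 clones 3 and 2 held 36.7 and 37.7 CPM and clone 5 held 58.3 CPM, all above the 25.3, 30.3 and 31.2 CPM of the controls. Over both experiments the difference was 0.39 on the log2 scale (standard error 0.174; edgeR adjusted p = 0.181). EZH2 KO clones held 32.7, 35.1 and 25.1 CPM (0.19, adjusted p = 0.563), and SUZ12 KO clones 29.0, 27.7 and 29.1 CPM (0.06, adjusted p = 0.869). Both sets overlapped the controls. In the knockdown the difference was 0.04 (standard error 0.169, limma adjusted p = 0.912). In STAG1 KO libraries SOS2 was 52.9, 64.3 and 58.8 CPM, above the 42.7 and 45.2 CPM of the controls, with a described log2 fold change of 0.42.

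No member was called in the knockdown (limma, 0 of 4 tested), where 20.5% of 12060 genes were. RASGRF2 alone had an unadjusted p under 0.05 (0.0478), and edgeR on the recovered reads also called 0.

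**Figure D2:**
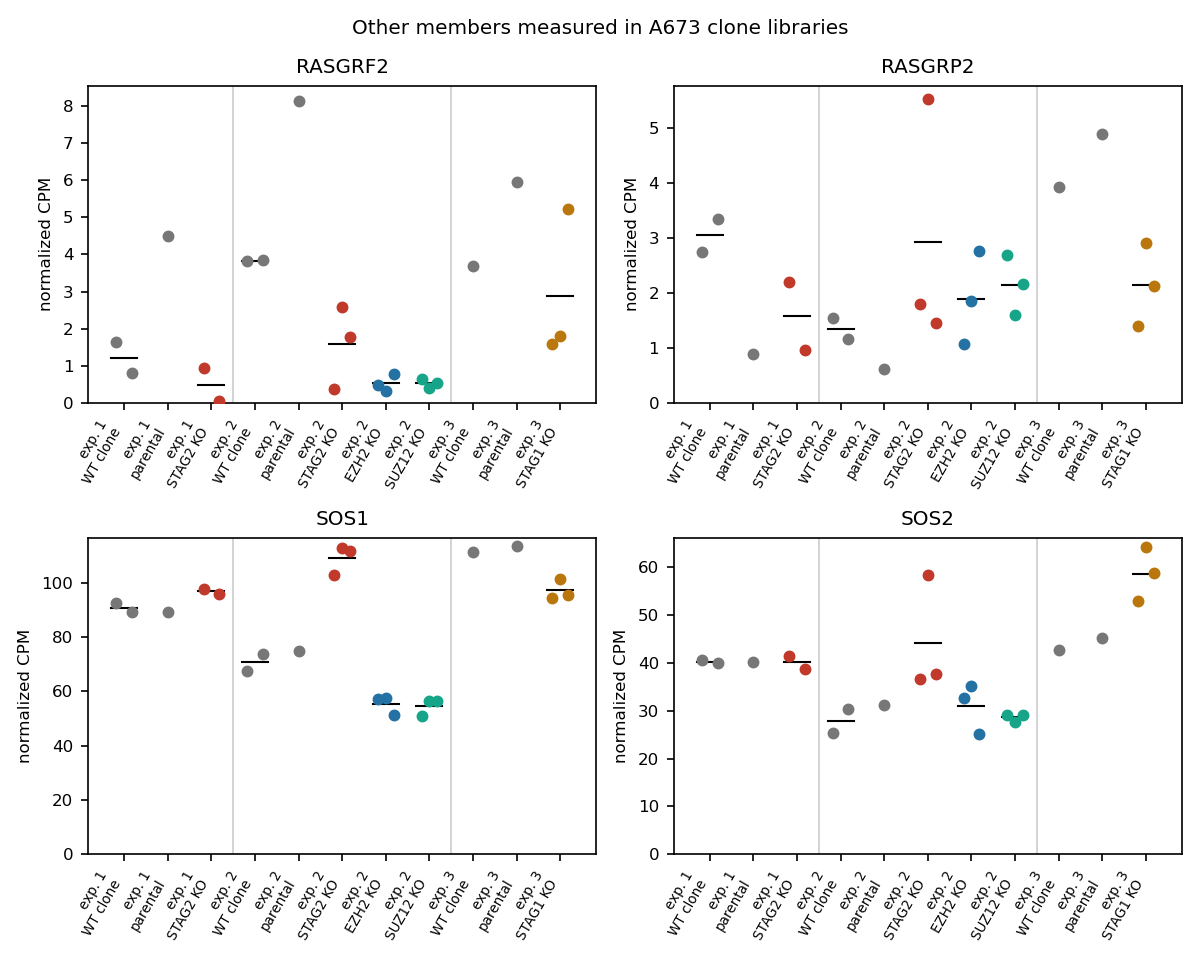
Normalized CPM of RASGRF2, RASGRP2, SOS1 and SOS2 in each of 22 A673 clone libraries by group, drawn as for RASGRF1 but on linear axes that start at 0. EZH2 KO and SUZ12 KO libraries lie at 0.328 to 0.763 CPM of RASGRF2, below all controls of experiment 2, and STAG2 KO clones of experiment 2 lie above those controls for SOS1.

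**Figure D3:**
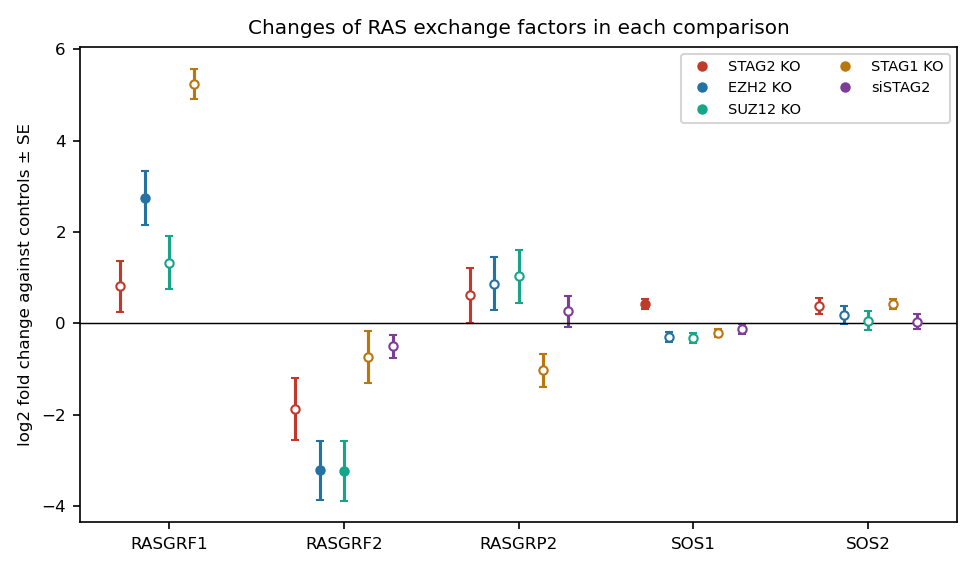
Log2 fold change with its standard error for the 5 members with enough reads in each comparison, with filled points for an adjusted p under 0.05. STAG1 KO values are open because they were not tested, and RASGRF1 has no knockdown point because it did not enter that fit.

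RASGRP3 (ENSG00000152689), a diacylglycerol-responsive member known from B cells, was at the floor in A673 controls, with 0 to 3 reads in each of 8 libraries. EZH2 KO clones held 9, 4 and 6 reads and SUZ12 KO clones 6, 7 and 12, all above the 3, 1 and 1 reads of their controls. As sums, 19 reads against 5 gave a ratio of 3.23 (95% exact interval 1.17 to 11.1) and 25 against 5 gave 4.18 (1.57 to 13.99). STAG2 KO libraries held 5 and 8 reads in experiment 1 and 5, 7 and 1 in experiment 2, 26 against 6 in the controls (ratio 5.06, interval 2.04 to 15.04). These intervals cover counting error only, without the spread between clones. STAG1 KO libraries held 1, 2 and 3 reads, as few as their controls, and the knockdown libraries had none in any of 6.

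RASGRP3 shares 1469 exon bases with FAM98A on the opposite strand, and reads without strand cannot be told apart there. FAM98A had a log2 fold change of −0.33 in EZH2 KO (adjusted p = 0.388), −0.31 in SUZ12 KO (adjusted p = 0.397) and 0.55 in STAG2 KO (adjusted p = 0.204, edgeR for each). RASGRP1, the T cell member, and RASGRP4, the mast cell member, stayed at 0 to 2 and 0 to 4 reads in A673 clones, so that no difference was detectable at this depth. The 4 reads of RASGRP4 were in STAG2 KO clone 5 of experiment 2.

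The 2 other Ewing sarcoma lines carried a different set of members. In A4573 cells RASGRP4 was 8.23 CPM without and 8.05 CPM with STAG2 (248 and 253 reads), a fold of 1.02 (95% exact interval 0.854 to 1.22). The 6 blood cell markers summed to 0.723 and 0.656 CPM in those libraries. RASGRP1, with 60 and 64 reads, also differed little between the arms (fold 0.978, interval 0.676 to 1.41). RASGRF1 was 0.697 CPM without and 1.21 CPM with STAG2 in A4573 (21 and 38 reads), a fold of 0.576 (interval 0.321 to 1.01). In SK-N-MC it had 1 and 2 reads (interval 0.00914 to 10.4), too few to show a difference in either direction. In A4573 the SOS genes made up 68.0% of the family's transcripts per kb without and 64.2% with STAG2, and in SK-N-MC 73.9% and 88.7%.

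RASGRF2 was lower without STAG2 in each pair. In SK-N-MC it had 10 reads in the STAG2 KO and 108 in the WT library, a fold of 0.0999 (interval 0.0466 to 0.191). In A4573 it had 12 reads without and 27 with STAG2, a fold of 0.463 (0.214 to 0.946). With 1 library per arm there is no replicate check, and these intervals cover counting error only. SOS2 was lower without STAG2 in each pair, at 60.1 against 92.7 CPM in SK-N-MC (fold 0.648, 0.611 to 0.687) and 26.1 against 37.9 CPM in A4573 (0.690, 0.629 to 0.755). SOS1 differed less, at folds of 1.07 and 0.825.

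RASGRP2 and RASGRP3 went opposite ways in the 2 lines. RASGRP2 was 22.9 CPM without and 9.74 CPM with STAG2 in SK-N-MC (fold 2.35, 2.06 to 2.69), and 6.21 and 16.6 CPM in A4573 (0.374, 0.314 to 0.442). RASGRP3 was 4.45 and 2.22 CPM in SK-N-MC (2.01, 1.502 to 2.71), and 0.763 and 2.83 CPM in A4573 (0.269, 0.163 to 0.430). RASGRP1 (37 against 9 reads) and RASGRP4 (10 against 1) were also higher in the SK-N-MC STAG2 KO library. In that library the blood cell markers summed to 57.9 CPM against 5.57 CPM in WT. Nearly all of it was PTPRC, at 56.6 against 2.89 CPM, while each of the other 5 markers was under 1 CPM in the KO library. Their part in these differences was not tested. A fold beyond 2 was common, at 21.6% of 16413 genes in SK-N-MC and 21.8% of 16124 in A4573.

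**Figure D4:**
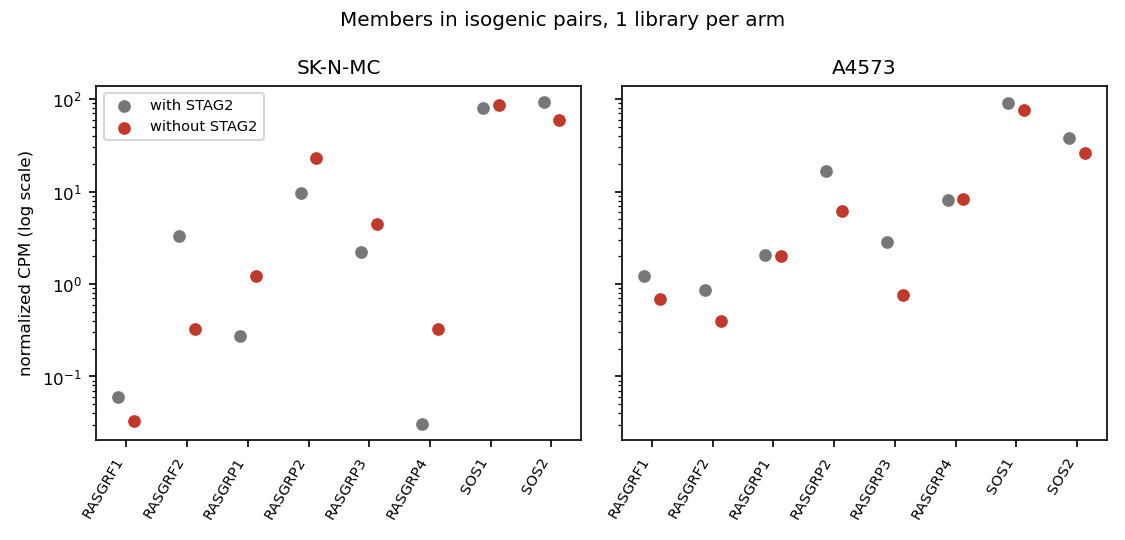
Normalized CPM on a log scale of the 8 members in SK-N-MC and A4573 cells with STAG2 (grey) and without it (red), 1 library per point. RASGRP4 is near 8 CPM in both A4573 libraries and under 1 CPM in SK-N-MC, and RASGRP2 and RASGRP3 are ordered oppositely in the 2 lines.

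Around RASGRF1, the gene next to it also rose in PRC2 KO cells. CTSH, which encodes a lysosomal cysteine protease and lies 10.3 kb away, rose by 2.99 in EZH2 KO (standard error 0.778, edgeR adjusted p = 0.0238) and by 3.82 in SUZ12 KO (standard error 0.799, adjusted p = 0.00597). Its described value in STAG1 KO was 1.24, and in STAG2 KO it was 0.62 (adjusted p = 0.695). Of 12 protein-coding genes within 500 kb, 9 were tested in the PRC2 comparisons. CTSH was the only call in EZH2 KO, and in SUZ12 KO MINAR1 rose too, by 1.35 (standard error 0.359, adjusted p = 0.0203). The shares called over all genes were 15.7% in EZH2 KO and 20.6% in SUZ12 KO, so nothing is read from these counts. In STAG2 KO, 1 of 8 was called, beside 12.4% of all genes. That gene was CHRNA5, a nicotinic receptor subunit 364.6 kb away, with 0.86 (adjusted p = 0.00842). It was called in the knockdown as well, with 0.76 (limma adjusted p = 0.000241). The EZH2 KO call of CTSH was lost without WT clone library 1 or 2, the parental library or EZH2 KO library 3 (2.66 to 3.20, adjusted p = 0.0643 to 0.0916), that of MINAR1 in SUZ12 KO without WT clone library 1, the parental library or SUZ12 KO library 3 (1.02 to 1.32, adjusted p = 0.0653 to 0.0890), and that of CHRNA5 in experiment 2 alone (0.55, adjusted p = 0.129). The CTSH call in SUZ12 KO held in each of the 18 alternatives run. In STAG1 KO the neighbours ran, as a description, from −0.56 to 2.64, the latter for the metalloprotease ADAMTS7. RASGRF1 was chosen as the highest there, so its place above them follows from the choice.

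**Figure D5:**
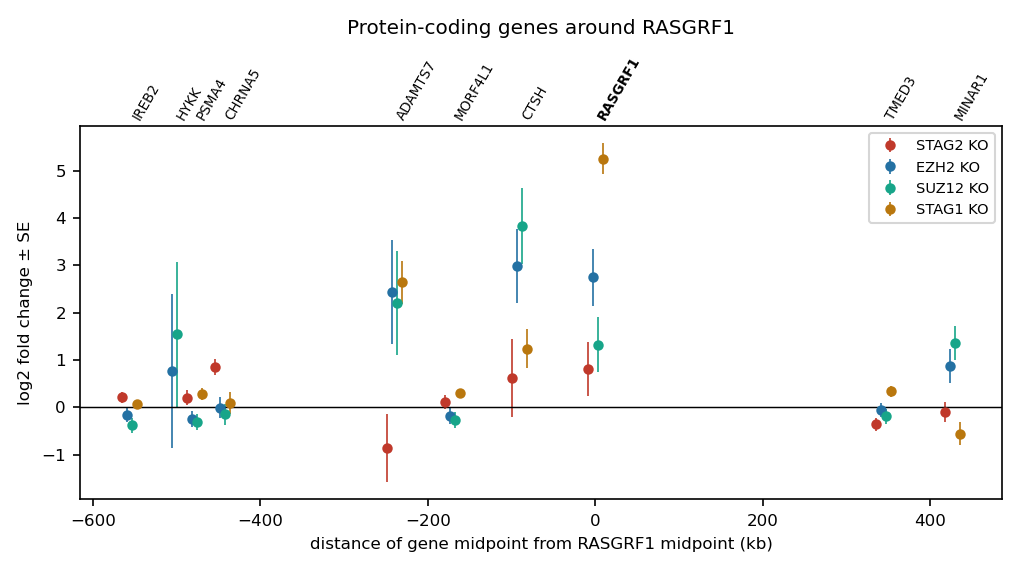
Log2 fold change with its standard error of the protein-coding genes tested around RASGRF1, by the distance of each gene's midpoint from that of RASGRF1 in kb. The points of a gene are set slightly apart by comparison. CTSH and ADAMTS7 hold the highest values of the neighbours in EZH2 KO, SUZ12 KO and STAG1 KO, and the STAG1 KO values are a description.

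Around RASGRF2, none of the 6 neighbours tested was called in EZH2 KO or SUZ12 KO, with values from −0.67 to 0.09 and from −0.46 to −0.01. Over all genes 15.7% and 20.6% were called, so nothing is read from 0 of 6.

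Over the 22 A673 clone libraries, each set against the controls of its experiment, the 4 genes most like RASGRF1 among 11051 were GBE1 (Pearson r = 0.908), UPP1 (0.885), DCBLD1 (0.881) and S100A11 (0.874). These are a description over libraries that share clones and controls. GBE1 is the glycogen branching enzyme, and UPP1 a uridine phosphorylase. The likeness used the STAG1 KO libraries, where RASGRF1 lay farthest from its controls, so the log2 fold changes of these genes there, 1.27 for S100A11 to 3.76 for DCBLD1, follow from the choice. In EZH2 KO, whose libraries it also used, they were 0.41 to 2.40. Among the other members, r with RASGRF1 ran from −0.48 for SOS1 to 0.19 for SOS2.

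The rest of the RAS pathway was followed with 90 genes in 7 groups. In EZH2 KO 21 of 85 tested were called, 15 higher and 6 lower (24.7% beside 15.7% of all genes). In SUZ12 KO 25 of 85 were called, 16 higher and 9 lower (29.4% beside 20.6%). The other exchange factors with the CDC25 domain, most of which act on RAP or RAL, had 5 higher and 1 lower of 19 tested in EZH2 KO and 7 higher and 1 lower in SUZ12 KO.

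RALGPS2, an exchange factor for RAL, rose from 10.3 ± 0.726 to 67.9 ± 10.1 CPM (SD, n = 3) in EZH2 KO and to 79.7 ± 8.33 in SUZ12 KO. These were log2 fold changes of 2.81 (adjusted p = 0.00333) and 3.03 (adjusted p = 0.00161, edgeR). PLCG2, a phospholipase that makes diacylglycerol, rose by 1.61 (adjusted p = 0.00732) and 2.26 (adjusted p = 0.000895). GAB2, an adaptor that assembles signals below receptors, fell from 54.9 ± 1.14 to 9.56 ± 4.61 CPM in EZH2 KO (log2 fold change −2.43, adjusted p = 0.000976) and to 4.38 ± 1.16 in SUZ12 KO (−3.58, adjusted p = 0.000102). RASA3, which switches RAS off, fell by 0.76 and 1.15. SPRED1, which recruits the RAS inhibitor NF1, fell by 0.90 and 1.39. SPRY2, a feedback inhibitor, rose by 1.37 in EZH2 KO (adjusted p = 0.0196) and by 1.15 in SUZ12 KO (adjusted p = 0.0324). Its relative SPRY1, named after its values were seen, went the other way and fell by 2.13 and 2.60 (adjusted p = 0.0312 and 0.0103). PLCB4, another phospholipase, rose by 1.30 and 1.93.

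The EZH2 KO calls of SPRY2, RASA3 and SPRED1 were each lost without any 1 of the 3 control libraries. SPRY2 was also lost without EZH2 KO clone 2. RASA3 was also lost without EZH2 KO clone 1 or 3, SUZ12 KO clone 1 or 2 or STAG2 KO clone 3, and SPRED1 without any EZH2 KO clone, SUZ12 KO clone 1 or STAG2 KO clone 3 (adjusted p up to 0.0825, 0.123 and 0.129). The EZH2 KO call of SPRY1 was lost without any 1 of the 3 controls or any EZH2 KO clone (adjusted p up to 0.0959), and that of PLCB4 without WT clone library 1 or 2 (up to 0.0650). In SUZ12 KO, SPRY2 was lost without any 1 of the 3 controls or clone 2 or 3 (adjusted p up to 0.108), while SPRY1 and PLCB4 held. The EZH2 KO count of 21 was 7 without WT clone library 1 or 2, 8 without the parental library, 10 without EZH2 KO clone 2 and 13 without clone 3. Calls over all genes moved as well, from 2377 to between 1169 and 3885 on leaving out 1 library.

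In STAG2 KO cells 12 of 77 pathway genes were called, 5 higher and 7 lower (15.6% beside 12.4%). No RAS gene (0 of 5) and no RAS GTPase-activating protein (0 of 8) was among them, and at a share of 12.4% nothing is read from that. DGKK, a diacylglycerol kinase, fell from 14.1 ± 5.16 (SD, n = 6) to 0.164 ± 0.0660 CPM (n = 5), a log2 fold change of −6.26 (edgeR adjusted p = 1.43e-05). SHC3, an adaptor of neurons, rose by 1.03 (adjusted p = 0.00842), SPRED3 by 1.91 (adjusted p = 0.00220) and SPRY2 by 0.90 (adjusted p = 0.0464). SPRY1 fell here too, by 1.87 (adjusted p = 0.0193). GAB2 fell by 0.91 (adjusted p = 0.00691) and GAB1 by 1.33 (adjusted p = 0.0250).

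The call of SPRY2 was lost on leaving out any library but clone 5 of experiment 2 (adjusted p up to 0.149). That of SPRY1 was lost in experiment 2 alone (−1.56, adjusted p = 0.195) and with the WT clone as the only control (−1.96, adjusted p = 0.0538). That of GAB1 was lost without WT clone library 2 of experiment 2 or either KO library of experiment 1 (adjusted p up to 0.0809). Over all 21 alternatives (edgeR or DESeq2) the adjusted p reached 0.284 for SPRY2 and 0.275 for GAB1. It reached 0.167 for SHC3 and 0.133 for GAB2, so those calls were lost in at least 1 too. The calls of DGKK and SPRED3 held in each (up to 0.00448 and 0.0341). Without clone 5 of experiment 2 the count of pathway genes was 27 in place of 12, and over all genes it was 4048 in place of 1687.

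In the knockdown 19 of 70 pathway genes were called, 8 higher and 11 lower (27.1% beside 20.5%). Among ERK feedback regulators and targets, 5 were higher and 2 lower of 13 tested. EGR1 rose from 666 ± 42.7 to 1279 ± 66.0 normalized reads (SD, n = 3), a difference of 0.94 on the log2(value + 1) scale (limma adjusted p = 5.21e-11). FOSL1 rose by 1.01 (adjusted p = 0.000119) and ETV4 by 0.74 (adjusted p = 0.000205). The 2 lower were DUSP6, by 0.24 (limma adjusted p = 0.00446), and SPRY1, by 0.76 (limma adjusted p = 0.0148). Both are named after their values were seen. Over 11 alternatives (limma or edgeR) the adjusted p of SPRY1 reached 0.0831, so its call was lost in at least 1. GAB1 fell by 0.73 (adjusted p = 0.00360), PLCB1 by 0.76 (adjusted p = 0.00461) and RGL1, an effector that activates RAL, by 0.52 (adjusted p = 0.000841). DGKK, which also fell in STAG2 KO cells, fell further, from 56.4 ± 16.2 to 1.32 ± 0.535 normalized reads. The difference was −4.61 (limma adjusted p = 8.23e-10), the lowest of the pathway genes tested. Its mean level over both groups, 28.9, was under the minimum for naming, and DGKK is named here after its values were seen. The call of PLCB1 was lost without siSTAG2 library 3 (adjusted p = 0.0512).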

How the data were processed

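Per the labels and the study's methods, oligo-dT, non-directional single-end reads were aligned to hg38 with TopHat2 2.0.0 (submitters' processing notes), and the authors deposited whole-number counts per gene symbol. For the knockdown the authors deposited a signal, reads divided by 1 factor per library. Whole reads were recovered for 100% of values (tolerance 0.01). No alignment was repeated.

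Counts were tested in R 4.3.3 with edgeR 4.0.16 (TMM, filterByExpr, quasi-likelihood), with the experiment as a term for STAG2 KO and 12 libraries in 1 fit for EZH2 KO and SUZ12 KO. Knockdown values were tested with limma 3.58.1 on log2(value + 1) where the mean was at least 10. Calls have a Benjamini-Hochberg adjusted p under 0.05 over all genes tested. Alternatives included DESeq2 1.42.0. Isogenic intervals are exact at 95%, for counting error. Likeness used log2 CPM with a prior count of 2, in genes whose mean level was 5 CPM or more. The rule names 5 genes by likeness, and 1 of them is not reported here.

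Pathway genes named are the 3 highest and 3 lowest fold changes of those called, above a mean level of 5 CPM, or 50 in the knockdown values. Pathway genes said to be named after their values were seen are outside that rule. The members and lists were chosen with earlier results of these data known. The labels do not say whether WT clone libraries come from separate cultures, and p-values then measure the spread between these libraries. Coordinates are those of GENCODE on GRCh38. The procedure was tested on simulated data.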

Additional observations from a re-analysis of the deposited data

Results flagged for a closer look

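Of 12 groups of 4 to 10 libraries examined for a member, 4 held a library far from the others, where chance gives about 1 in 20. All 4 were in the 5 STAG2 KO libraries of A673 cells. RASGRF1 was 15.05 CPM in library 24 of experiment 1. Clone 5 of experiment 2 stood apart for the other 3, with RASGRP2 at 5.51 CPM, SOS2 at 58.3 CPM and RASGRP4 at 0.210 CPM, the last from 4 reads. These 3 share 1 library and are not independent, so the 4 of 12 is not weighed against 1 in 20. Without library 24 and clone 5 together, a choice made after seeing the data, 2 members were called in STAG2 KO in place of 1, with RASGRF2 at −1.90 (edgeR adjusted p = 0.0496). Why these libraries stand apart was not tested.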

How the results depend on the processing

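No result changed from called in one direction to called in the other. Members called in STAG2 KO numbered 1, against 2 with DESeq2 or without library 24 and clone 5, and 0 when scaled by library size only, with the WT clone as the only control, without the experiment term or in experiment 1 alone (leaving out 1 library, 0 to 2). In SUZ12 KO 1 was called, against 2 with DESeq2 or with only KO and control libraries (leaving out 1, 1 to 2), and in the knockdown 0, against 1 with a mean of at least 1. Pathway genes called in STAG2 KO numbered 12, against 22 in experiment 1, 2 in experiment 2 and 22 without library 24 and clone 5 (leaving out 1, 10 to 27), and in EZH2 KO 21, against 8 with the WT clone as the only control (leaving out 1, 7 to 28). RASGRF1 in STAG1 KO was 5.25, against 4.91 with the WT clone as the only control and 2.10 with the controls of experiments 1 and 2 (leaving out 1, 4.91 to 5.65). SOS1 in A4573 was −0.28, against −0.36 scaled by library size only.

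Over all genes, STAG2 KO calls numbered 1687, against 2616 with DESeq2, 3663 in experiment 1, 494 in experiment 2, 3470 without library 24 and clone 5, and 1053 to 4048 leaving out 1. EZH2 KO calls numbered 2377 (1441 with the WT clone only, 1169 to 3885 leaving out 1) and SUZ12 KO calls 3112 (1874 to 4797). Where 1 sample is left in an arm, it is assumed to vary like the others. With the replicate block, 0 members and 20 pathway genes were called in the knockdown, against 0 and 19 without it, and deviations of same-numbered libraries correlated at 0.0257, 0.0372 and 0.00402, so the numbers were not taken to pair them. Clone numbers of KO libraries and replicate numbers of controls name different things, and no block was fitted there. Members with few reads are limited by depth.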
